A study of Mus musculus with 65 samples.

Results

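The comparison described here set the cerebellum of 18-week-old Atxn1[82Q] knockin mice that had received an antisense oligonucleotide (ASO) against Atxn1 beside the cerebellum of knockin mice that had received vehicle. Its members were the 4 ASO and 4 vehicle knockin cerebellum libraries, taken from their labels, which is 8 of the 65 RNA sequencing libraries of the study. All mice were of strain C57BL/6J, and both knockin groups carried the same expanded allele, so the comparison held genotype, age and region fixed and varied the treatment. The 4 libraries of vehicle-treated wild type cerebellum of the same age were fitted in the same model and are given beside the contrast as a reference level. The labels give no ASO sequence, dose, route, sex or number of mice per library. Whether the libraries of a group are separate animals is also not stated, and the p-values then cover only the variation among libraries, which may be technical.

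Spinocerebellar ataxia type 1 is caused by an expanded CAG repeat in ATXN1, which lengthens a glutamine tract in ataxin-1, a nuclear protein that binds the transcriptional repressor Capicua. Purkinje cells, which carry the output of the cerebellar cortex, are the cells for which the disease is best known, and lower levels of transcripts of Purkinje cells are an early sign in mouse models. An ASO pairs with its target mRNA and lowers it, so the first question is how much Atxn1 mRNA was left, and the second is which other transcripts differed between treated and untreated knockin cerebellum.

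The 12 cerebellum libraries held from 67.4 to 119.1 M counts. Of counts from 1 to 20, 73.4% to 76.8% were even in each library, as arises when both reads of a pair are counted, so the number of independent fragments may be lower than these totals. Markers of Purkinje cells, granule cells and Bergmann glia were high in every library, with Calb1 from 685 to 1330 CPM (counts scaled to library size with TMM factors) and Gabra6 from 559 to 809 CPM. The brainstem gene Hoxa5 reached at most 0.182 CPM and the T cell gene Cd3e at most 0.101 CPM, while the choroid plexus gene Ttr ranged from 3.65 to 6522 CPM across libraries of all groups. The ASO libraries did not form a uniform group, and 2 of them stood apart. ASO replicate 4 had the highest Atxn1 of the treated libraries. In vehicle-treated knockin against wild type, 419 genes were called lower (2.06%) and 133 higher (0.654%). Of the 419 lower genes, ASO replicate 4 lay within the range of the 4 wild type libraries for 114 genes (27.2%) and within the range of the 4 vehicle libraries for 3 (0.716%). The other ASO libraries lay within the wild type range for 4.06% to 16.5% of these genes and within the vehicle range for 17.2% to 35.3%. ASO replicate 3 was the deepest library and was low in long transcripts. Against the other 3 ASO libraries its median log2 difference was -0.423 over the 20% of genes with the longest exon sequence and 0.235 over the 20% with the shortest, and no other library was beyond 0.161 in either set. Results are therefore given with all libraries and without each of these 2.

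**Figure D1:**
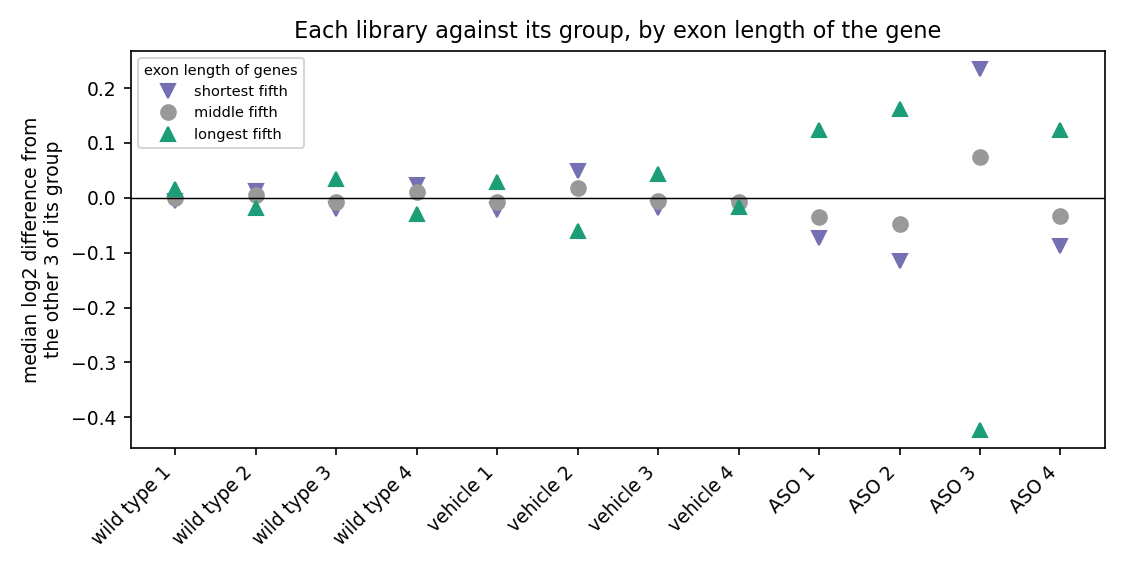
Median log2 difference of each cerebellum library (x axis) from the other 3 of its group (y axis, log2), for the genes of shortest, middle and longest exon length (20% of genes each). ASO replicate 3 lies at -0.423 for the longest and 0.235 for the shortest genes, away from the other 11 libraries.

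Atxn1, the target of the ASO, was lower in all 4 ASO libraries than in all 4 vehicle libraries. The gene lies on chromosome 13 (chr13:45549755-45965008, minus strand, GRCm38). Its level was 63.0, 65, 59.3 and 57.9 CPM in the vehicle libraries and 32.1, 39.4, 20.2 and 50.3 CPM in ASO replicates 1 to 4. The groups did not overlap, and ASO replicate 4, the highest treated library, lay inside the wild type range of 46.4 to 56.6 CPM. The ASO mean of 35.5 ± 12.6 CPM (SD, n = 4) was 57.9% of the vehicle mean of 61.3 ± 3.27 CPM (n = 4), with a two-sided exact permutation p of 0.029, the smallest that 4 against 4 libraries can give. Without ASO replicate 4 the ASO mean was 49.9% of the vehicle mean, and without ASO replicate 3, the lowest, it was 66.3%. Atxn1 is itself a long transcript, with 13914 bases of exon, and ASO replicate 3 was the library low in long transcripts. The part of transcript length in its value of 20.2 CPM was not tested. In the fit across all genes with edgeR's quasi-likelihood test and Benjamini-Hochberg adjustment, the log2 fold change of Atxn1 was -0.79 ± 0.20 (SE, adjusted p = 0.241), and -1.01 ± 0.18 (adjusted p = 0.0659) without ASO replicate 4. Atxn1 therefore did not pass the threshold of 0.05 across all genes in either fit. It passed in 3 of 21 alternatives: with DESeq2 (adjusted p = 0.0229), with limma-voom (adjusted p = 0.0235) and, in edgeR, with both ASO replicates 3 and 4 left out, at a log2 fold change of -0.78 (adjusted p = 0.00331), where 109 of 20853 genes were called higher (0.523%) and 14 lower (0.0671%).

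**Figure D2:**
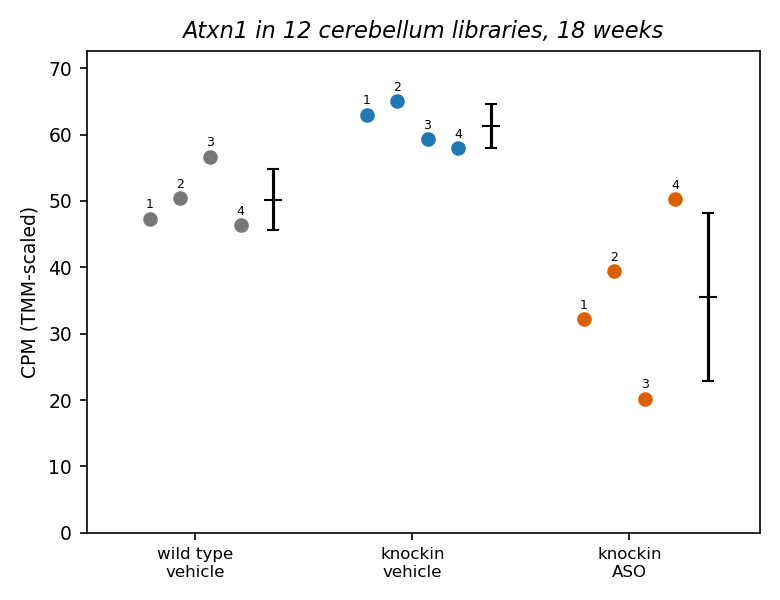
Atxn1 level (y axis, TMM-scaled CPM) in each of the 12 cerebellum libraries, with replicate numbers beside the points and the mean ± SD of 4 libraries at the right of each group. The 4 ASO libraries, from 20.2 to 50.3 CPM, lie below the 4 knockin vehicle libraries, from 57.9 to 65 CPM.

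Genes close to Atxn1 in function were tested in the same fit. Atxn1l, the paralog that shares Capicua binding with Atxn1, was at 61.9, 56.3, 25.6 and 55.7 CPM in ASO replicates 1 to 4 and from 55.8 to 61.8 CPM in the vehicle libraries, so that only the library low in long transcripts was low. Cic, which encodes Capicua, showed the same pattern, at 98.8 CPM in ASO replicate 3 and from 164 to 194 CPM in the other 7 knockin libraries. Neither passed the test (edgeR adjusted p = 0.679 for Atxn1l and 0.896 for Cic). Of 25 tested ataxins and Capicua partners, 0 were called in either direction in edgeR, and Atxn1 was the member whose groups did not overlap. Of 21 tested Capicua target genes, such as Etv4, Etv5, Dusp6 and Spry4, 0 were called in edgeR, with a median log2 fold change of 0.106.

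With all 12 libraries, 10 of 20350 genes tested were called higher with ASO (0.0491%) and 0 were called lower (0%), at an adjusted p under 0.05 in edgeR's quasi-likelihood test. At an unadjusted p under 0.05 there were 1163 higher (5.71%) and 393 lower (1.93%). DESeq2 called 203 higher and 16 lower on the same libraries, and limma-voom with sample quality weights called 181 and 20. The median log2 fold change over all genes was 0.0241. A fit of the 8 knockin libraries alone, without the wild type libraries that share the estimate of the spread, called 2 genes higher, Fam107b and Muc3a. The count also moved with single libraries. It was 74 without ASO replicate 2, 118 without ASO replicate 3 and 44 without ASO replicate 4, and 4, 4 and 5 without vehicle replicates 1, 2 and 4.

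The 10 genes that rose were lower in vehicle-treated knockin than in wild type in the same model, and in each of them all 4 ASO libraries stood above all 4 vehicle libraries. The contrast of vehicle with wild type uses the same vehicle libraries as the contrast of ASO with vehicle, so the 2 sets of values are not independent. Fam107b, which is on the list of Purkinje cell markers, had the smallest p. Its level was 77.4, 75.7, 85.8 and 77.2 CPM in the vehicle libraries, 146, 132, 164 and 156 CPM in the ASO libraries, and from 185 to 197 CPM in wild type. The ASO libraries thus lay between both reference groups without touching either. The rise was 1.89-fold (log2 0.92 ± 0.07, SE, adjusted p = 0.000385), and 1.85-fold without ASO replicate 4.

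Muc3a, which encodes a membrane mucin, was at 5.27, 4.44, 6.11 and 6.34 CPM in the vehicle libraries and at 19.0, 14.6, 17.0 and 20.5 CPM in the ASO libraries, with wild type from 20.9 to 27.0 CPM. Its rise was 3.21-fold (log2 1.68 ± 0.14, SE, adjusted p = 0.000385). Mdfi, which encodes an inhibitor of myogenic transcription factors, was at 3.77, 4.82, 4.33 and 3.99 CPM with vehicle and at 11.5, 8.93, 14.9 and 14.5 CPM with ASO, and wild type lay from 16 to 19.7 CPM. The rise of Mdfi was 2.95-fold (log2 1.56 ± 0.16, SE, adjusted p = 0.00199). For both genes ASO replicate 2 was the lowest treated library, and it still stood above every vehicle library.

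Kctd12, an auxiliary subunit of GABA-B receptors, was at 136, 126, 138 and 132 CPM with vehicle and at 226, 218, 183 and 233 CPM with ASO, a rise of 1.61-fold (adjusted p = 0.0077). Trabd2b, a Wnt-processing metalloprotease, rose 1.85-fold (adjusted p = 0.0176), from 14.3 ± 1.35 to 26.5 ± 4.89 CPM (SD, n = 4 each). Plekhd1os, a noncoding transcript named as antisense to Plekhd1, rose 2.68-fold (adjusted p = 0.00747), from 0.887 ± 0.050 to 2.38 ± 0.551 CPM. The other 4 genes called have provisional symbols. The libraries were made with a stranded kit, but no source used here gives the strand setting of the counting. Fam107b, Kctd12 and each of the 4 genes with provisional symbols overlap at least 1 annotated gene on the other strand. Reads of such partners therefore cannot be told apart from theirs. All 10 genes stayed above the threshold without ASO replicate 3, without ASO replicate 4 and without both.

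**Figure D3:**
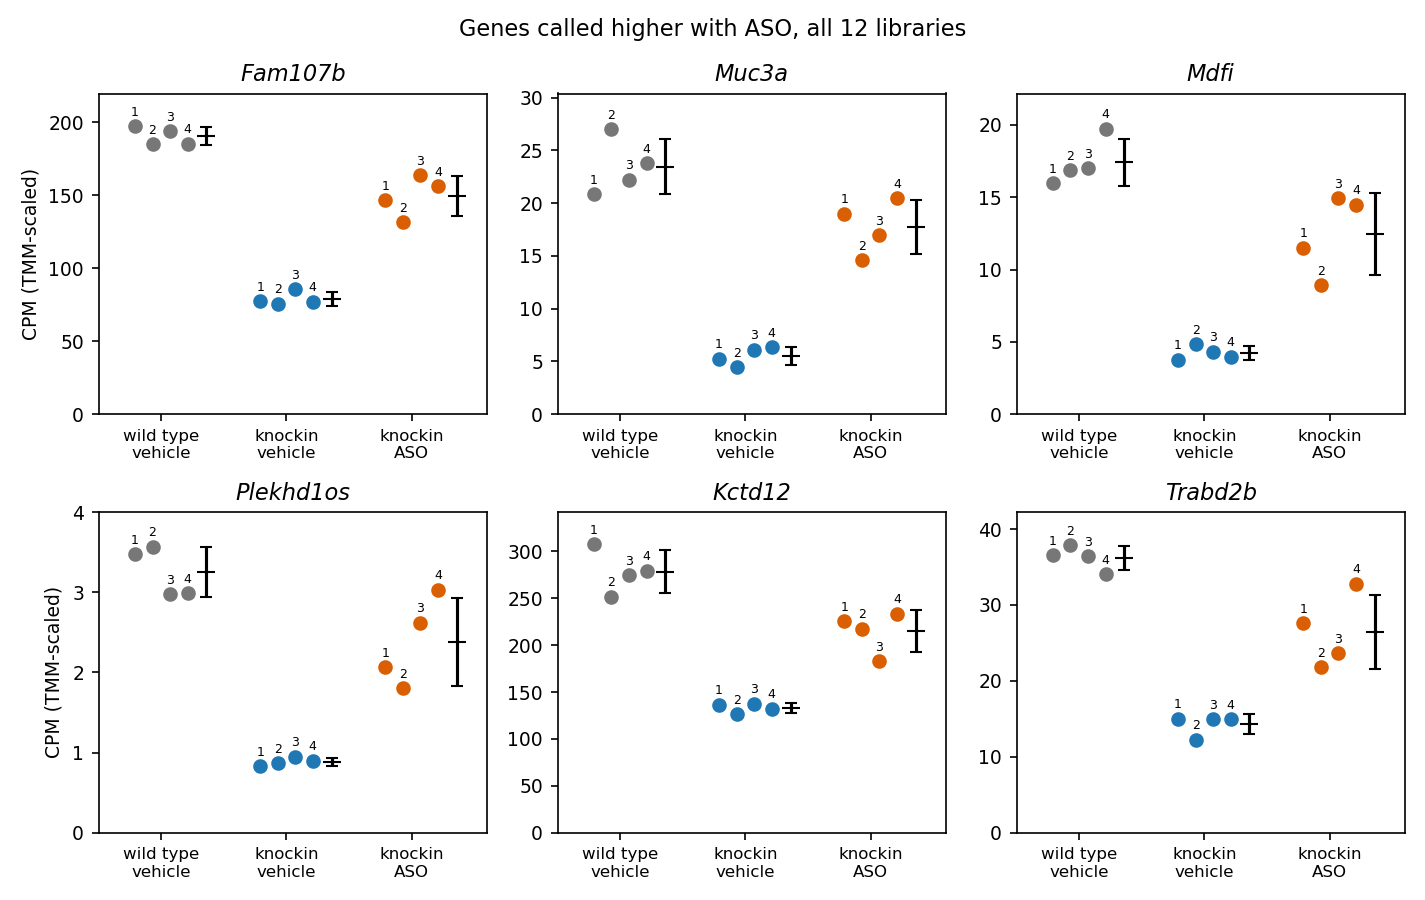
Levels (y axes, TMM-scaled CPM, from 0) of the 6 genes with a full symbol that were called higher with ASO, in each of the 12 cerebellum libraries, with replicate numbers and the mean ± SD of 4 libraries at the right of each group. In each panel the 4 ASO points lie above the 4 knockin vehicle points. For Fam107b they run from 132 to 164 CPM, against 75.7 to 85.8 CPM with vehicle.

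Several further genes were close to the threshold with all libraries, and more of them passed it once ASO replicate 3 was left out. Epor, the erythropoietin receptor, was at 1.96, 2.37, 2.6 and 2.91 CPM with vehicle and at 4.42, 4.05, 5.41 and 4.94 CPM with ASO (1.91-fold, adjusted p = 0.0523). Cck, the neuropeptide cholecystokinin, was at 17.2, 14.5, 15.7 and 16.6 CPM with vehicle and at 25.1, 23.9, 45 and 28.0 CPM with ASO (1.91-fold, adjusted p = 0.103). Stac, an adaptor of voltage-gated calcium channels, was at 8.6 ± 0.791 CPM with vehicle and 13.6 ± 2.01 CPM with ASO (SD, n = 4 each, adjusted p = 0.0539). Fads1, a fatty acid desaturase, was at 178 ± 11.1 and 237 ± 10.1 CPM (adjusted p = 0.0665). In each of these 4 genes the groups did not overlap and wild type was above vehicle. Without ASO replicate 3, Epor rose 1.82-fold (adjusted p = 0.0155), Cck 1.60-fold (adjusted p = 0.00441), Stac 1.60-fold (adjusted p = 0.00843) and Fads1 1.33-fold (adjusted p = 0.00843).

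Without ASO replicate 3, 118 of 20606 genes tested were called higher (0.573%) and 6 lower (0.0291%). The lower genes included Plxnc1, Tmem255a, Gcnt4, Polr2a and Cd163, of which Plxnc1 and Polr2a were named after their values were seen. Gcnt4, a glycosyltransferase gene, was at 2.65, 2.70, 3 and 3.60 CPM with vehicle, at 1.72, 1.75, 1.39 and 1.67 CPM with ASO, and from 1.31 to 1.84 CPM in wild type. It fell 1.74-fold without ASO replicate 3 (adjusted p = 0.0382) and had an adjusted p of 0.0848 with all libraries. Tmem255a, which encodes a transmembrane protein, was at 94.6 ± 6.70 CPM with vehicle and 66.8 ± 11.6 CPM with ASO, with an adjusted p of 0.0285 without ASO replicate 3 and 0.157 with it. Other genes with 4 ASO libraries below 4 vehicle libraries did not pass in either fit, among them Sema3a, a repulsive guidance cue (adjusted p = 0.191 with all libraries), and the neighbouring paralogs Gprasp1 and Gprasp2 (0.209 each), which encode proteins that sort G protein-coupled receptors.

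In edgeR, leaving out ASO replicate 4 brought up another group, genes of microglia, the resident macrophages of the brain. Then 44 of 20635 genes tested were called higher (0.213%) and 0 lower (0%), with 1256 higher (6.09%) and 455 lower (2.2%) at an unadjusted p under 0.05 in edgeR. ASO replicates 1 to 3 lay above all 4 vehicle libraries for 4.47% of genes and below them for 2.74%. DESeq2 called 199 higher and 23 lower without this library, and limma-voom 136 and 12. Of 24 tested genes of activated microglia, 10 rose in edgeR without ASO replicate 4 and 0 passed with it. Of 22 tested homeostatic microglia genes, 9 rose in edgeR without it and 0 passed with it. With all libraries, DESeq2 called 10 activated and 7 homeostatic microglia genes higher, beside 203 of 20018 genes tested. On the same libraries limma-voom called 0 of either list. The median log2 fold change of the activated microglia genes was 1.14 without ASO replicate 4 and 0.926 with it, beside 0.0111 and 0.0241 over all genes. A fit of the knockin libraries alone, without ASO replicate 4, called 2 genes higher, Itgax and Clec7a. With 1 more library left out the count of higher genes was 113 without ASO replicate 2, 109 without ASO replicate 3, 25 without vehicle replicate 1 and 28 without vehicle replicate 4.

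Itgax, the integrin CD11c of activated microglia, was at 0.364, 0.263, 0.312 and 0.182 CPM with vehicle and at 2.91, 2.36, 2.07 and 0.200 CPM in ASO replicates 1 to 4. Clec7a, the beta-glucan receptor Dectin-1, was at 1.11, 1.22, 0.689 and 1.02 CPM with vehicle and at 6.51, 4.98, 5.97 and 0.921 CPM with ASO. In both genes 3 treated libraries stood far above all 8 vehicle-treated libraries, wild type included, while ASO replicate 4 stood within the vehicle range. Without it, Itgax rose 8.65-fold (log2 3.11 ± 0.24, SE, adjusted p = 0.000903) and Clec7a rose 5.69-fold (log2 2.51 ± 0.24, SE, adjusted p = 0.00175). With it, the adjusted p was 0.137 for each.

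Lpl, lipoprotein lipase, was at 1.73, 1.68, 0.962 and 2.04 CPM with vehicle and at 6.55, 6.81, 8.88 and 1.34 CPM with ASO, a rise of 4.58-fold without ASO replicate 4 (adjusted p = 0.00326). Tyrobp, the signalling adaptor of TREM2, was at 10.1, 12.1, 8.80 and 10.8 CPM with vehicle and at 27.4, 21.9, 37.8 and 10.9 CPM with ASO, a rise of 2.75-fold without that library (adjusted p = 0.00304). Trem2 itself, a lipid-sensing receptor, rose 2.48-fold (adjusted p = 0.0039). Lyz2, lysozyme, was at 58.3, 34.7, 57.0 and 16.8 CPM with ASO and at 14.2 to 19.8 CPM with vehicle, a rise of 2.94-fold without ASO replicate 4 (adjusted p = 0.00343). Cd68, a lysosomal membrane protein of phagocytes, rose 2.48-fold (adjusted p = 0.00175), Fcrls 2.66-fold (adjusted p = 0.00236) and Cd52, a surface glycoprotein of leukocytes, 2.98-fold (adjusted p = 0.0129), each without that library. In ASO replicate 4 these genes were at 3.89 CPM for Cd68, 5.80 CPM for Fcrls and 1.44 CPM for Cd52, where the vehicle libraries held 4.19 to 4.85, 5.36 to 7.69 and 1.30 to 1.98 CPM.

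The microglial genes did not move as a block. Tmem119, P2ry12, Csf1r and Sall1, which serve to count resting microglia, had log2 fold changes of 0.08, -0.09, 0.05 and -0.09 without ASO replicate 4. They did not pass the test, and they are named here after their values were seen. P2ry12, for example, was at 13, 13.6, 14.1 and 13.6 CPM with ASO and at 13.1 to 15.7 CPM with vehicle. Cx3cr1, another marker of microglia, was at 25.7, 26.1, 19.5 and 20.7 CPM with ASO and at 19.1 to 20.6 CPM with vehicle. With ASO replicates 3 and 4 left out, Cx3cr1 was called higher (log2 0.39, edgeR adjusted p = 0.00623). Of the 22 homeostatic microglia genes, 20 were positive with all libraries. In a bulk library, more cells of a type and more RNA of a gene per cell cannot be told apart. Genes of perivascular macrophages, which share many transcripts with microglia, leaned the other way, with 9 of 10 negative and a median log2 fold change of -0.332 with all libraries. Cd163, the haemoglobin scavenger receptor of these cells, was at 2.94, 2.45, 1.51 and 2.01 CPM with vehicle and at 0.903, 0.882, 1.05 and 1.32 CPM with ASO, with an adjusted p of 0.106 with all libraries, 0.0514 without ASO replicate 4 and 0.0461 without ASO replicate 3. F13a1, another gene of these cells, was at 2.41, 1.98, 2.84 and 2.46 CPM with ASO and at 2.29 to 5.07 CPM with vehicle (adjusted p = 0.374). Of 15 tested lymphocyte genes, 0 were called and 12 were positive, with a median log2 fold change of 0.295. Cd3e and Cd79a stayed at or under 1.23 CPM in every library. Ighm, an immunoglobulin gene, was at 6.07, 5.52, 8.23 and 6.63 CPM with ASO and at 4.20 to 6.12 CPM with vehicle (edgeR adjusted p = 0.626).

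Of 23 tested complement and chemokine genes, 6 rose in edgeR without ASO replicate 4, beside 0.213% of all genes, and 0 passed with it. Of these 6, 4 are also on the microglia lists (C1qa, C1qb, C1qc and Ccl3), so the counts are not separate. With all libraries, DESeq2 called 6 complement and chemokine genes higher, beside 203 of 20018 genes tested, and limma-voom called 0, beside 181 of 20350. C4b, a component of the classical complement pathway, was at 22.4, 26.3, 17.3 and 25.9 CPM with vehicle and at 54.5, 45, 56.3 and 22.4 CPM with ASO, a rise of 2.25-fold without ASO replicate 4 (adjusted p = 0.00343). C1qc, a chain of the C1q complex that starts this pathway, was at 43.6, 39.0, 61.7 and 21.6 CPM with ASO and at 20.8 to 26.8 CPM with vehicle, a rise of 2.02-fold (adjusted p = 0.00893). C3, on which the complement pathways converge, rose 2.85-fold (adjusted p = 0.0199). Ccl3, a chemokine, was at 0.148 to 0.227 CPM with vehicle and at 1.28, 0.962, 2.02 and 0.0888 CPM with ASO, a rise of 7.54-fold without ASO replicate 4 (adjusted p = 0.00343). Among lysosomal genes, 2 of 24 rose without that library, and both are also on the homeostatic microglia list. One of them was Ctss, the protease cathepsin S (1.84-fold, adjusted p = 0.0231).

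Some genes of reactive astrocytes showed the same split. Gfap, the intermediate filament protein of astrocytes, was at 188, 237, 171 and 232 CPM with vehicle, at 455, 418, 579 and 229 CPM with ASO, and at 210 to 240 CPM in wild type. It rose 2.32-fold without ASO replicate 4 (log2 1.21 ± 0.13, SE, adjusted p = 0.00304) and had an adjusted p of 0.137 with it. Of 19 tested reactive astrocyte genes, 4 rose without ASO replicate 4, beside 0.213% of all genes: Cd44, Gfap, C3 and Serpina3n, of which Serpina3n, a secreted protease inhibitor, is named after its values were seen. Cd44, a hyaluronan receptor, differed from Gfap in that ASO replicate 4 was also above every vehicle library, at 12.4 CPM against 8.75 to 9.73 CPM. The same held for C3, at 1.29 CPM in ASO replicate 4 against 0.808 to 1.14 CPM with vehicle. Cd44 was at 15.7, 14.5 and 12.9 CPM in ASO replicates 1 to 3, with an adjusted p of 0.0539 with all libraries and 0.0231 without ASO replicate 4. With all libraries, DESeq2 called 4 reactive astrocyte genes higher, beside 203 of 20018 genes tested, and limma-voom called 1, beside 181 of 20350.

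**Figure D4:**
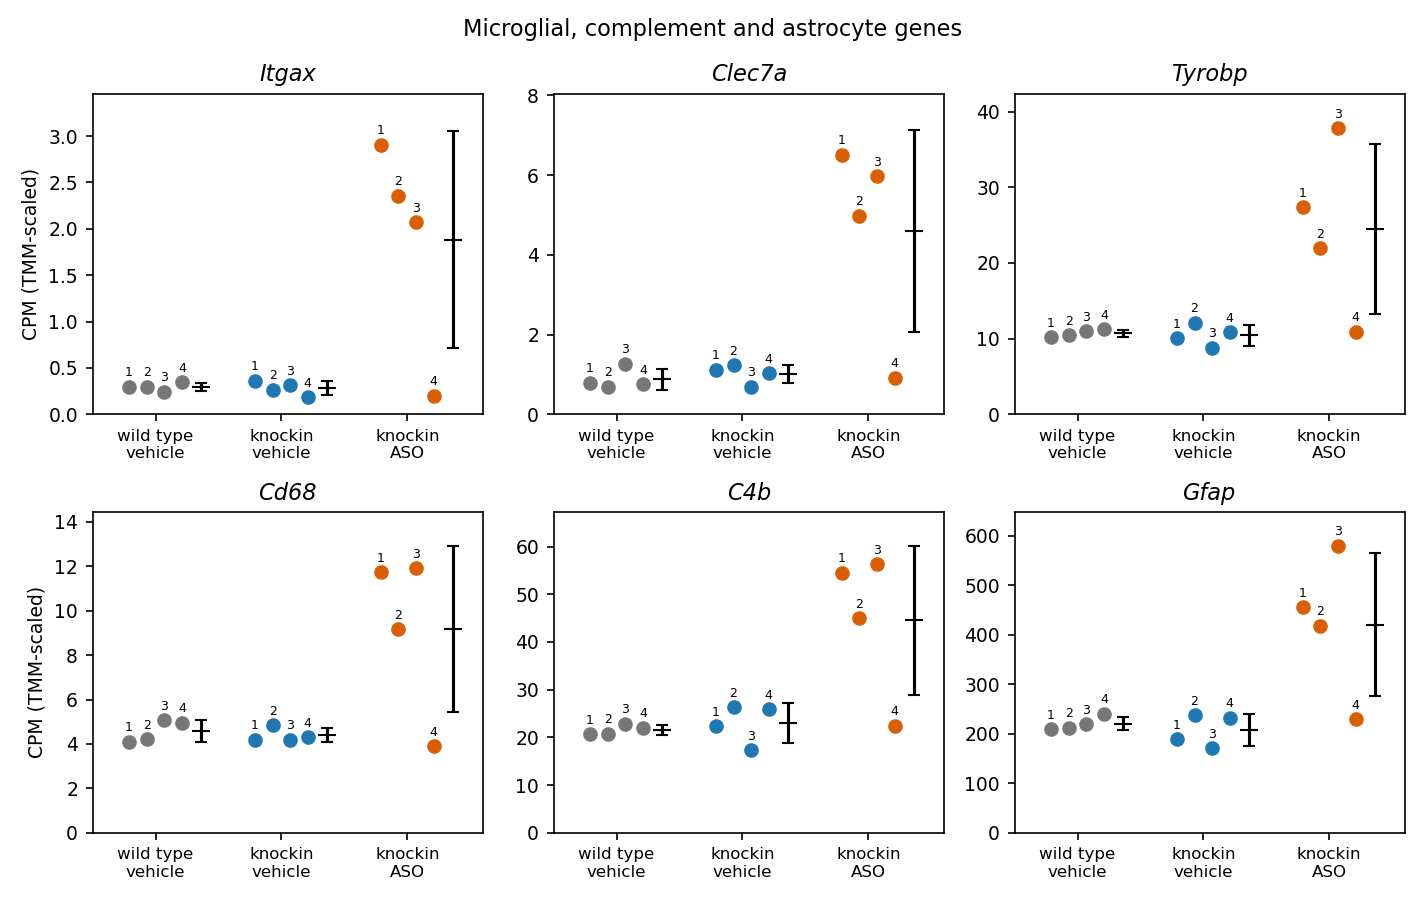
Levels (y axes, TMM-scaled CPM, from 0) of 6 microglial, complement and astrocyte genes in each of the 12 cerebellum libraries, with replicate numbers and the mean ± SD of 4 libraries at the right of each group. ASO replicates 1 to 3 lie above all other libraries, as for Clec7a at 4.98 to 6.51 CPM against 0.921 CPM in ASO replicate 4. ASO replicate 4 lies among the vehicle-treated libraries, except for Cd68, where it lies below them at 3.89 CPM.

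The RefSeq promoter table for GRCm38.p6 held 15 of the 21 genes on the microglial and complement lists that were called without ASO replicate 4, and 7 of the 10 genes called with all libraries. The 250 bases before the first listed start of each gene were searched on both strands for GGAAGT, the core letters bound by ETS factors such as the microglial factor PU.1. These letters stood in 9 of the 15 windows of the microglial and complement lists (60%). They stood in 0 of the 7 windows of the genes called with all libraries and in 19.99% of all 27025 genes in the table. The repressor motif TGAATGAA of Capicua stood in 0 of the 15, in 0 of the 7 and in 1.092% of all genes. A further motif, TCACNCCAC with N for any base, was also searched. It stood in 1 of the 17 windows found for cholesterol synthesis genes (5.882%) and in 1.036% of all genes. The windows below are shown because Fam107b led the genes called with all libraries and Itgax and Lyz2 were among those called without ASO replicate 4. Capitals mark GGAAGT or its reverse complement, and Fam107b has no capitals because the letters were not in its window. They run 5′ to 3′ on the strand of the gene, for Fam107b at chr2:3713208-3713457 (plus strand), for Itgax at chr7:128129300-128129549 (plus strand) and for Lyz2 at chr10:117282273-117282522 (minus strand). The Fam107b window lay inside the annotated gene (chr2:3570488-3782142), and windows at other starts of a gene were not searched. A match of these letters is a description and not a measured binding site.
Fam107b: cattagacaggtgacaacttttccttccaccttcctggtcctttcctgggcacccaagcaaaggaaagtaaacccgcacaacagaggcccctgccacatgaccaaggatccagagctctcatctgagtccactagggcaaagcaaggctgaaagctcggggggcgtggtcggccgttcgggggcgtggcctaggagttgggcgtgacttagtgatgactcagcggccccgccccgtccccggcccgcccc
Itgax: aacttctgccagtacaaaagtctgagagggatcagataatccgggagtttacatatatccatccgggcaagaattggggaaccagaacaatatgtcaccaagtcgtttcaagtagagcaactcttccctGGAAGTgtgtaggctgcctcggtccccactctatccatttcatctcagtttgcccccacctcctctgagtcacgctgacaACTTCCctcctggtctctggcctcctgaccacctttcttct
Lyz2: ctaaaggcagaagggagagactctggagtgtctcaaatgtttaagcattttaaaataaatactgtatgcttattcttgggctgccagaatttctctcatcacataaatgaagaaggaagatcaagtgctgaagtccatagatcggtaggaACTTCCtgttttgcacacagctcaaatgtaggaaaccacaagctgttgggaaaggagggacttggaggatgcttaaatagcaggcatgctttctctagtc

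Purkinje cell genes were lower in vehicle-treated knockin than in wild type, and 1 of 30 tested passed edgeR's test with ASO. With all libraries, DESeq2 called 5 of this list higher, beside 203 of 20018 genes tested. On the same libraries limma-voom called 7 higher, beside 181 of 20350. Against the vehicle mean, the mean log2 level of the list was 0.27, 0.03, 0.30 and 0.48 in ASO replicates 1 to 4 and -0.09 to 0.12 in the vehicle libraries, so ASO replicate 2 lay inside the vehicle range. In edgeR, the member that rose with all libraries was Fam107b. Without ASO replicate 3, edgeR called 3 higher, Fam107b, Rgs8 and Gng13, beside 0.573% of all genes in that fit. The median log2 fold change of the list was 0.326 with all libraries and 0.238 without ASO replicate 4, beside a median of -0.726 between vehicle knockin and wild type, where 19 of the 30 were called lower. In 6 of the 30 all 4 ASO libraries lay above all 4 vehicle libraries, a share of members to be read against 2.73% of all genes tested. These 6 were Fam107b, Gng13, Cep76, Stk17b, Pcp2 and Lhx5, of which the last 5 are named after their values were seen. Gng13, a G protein gamma subunit of Purkinje dendrites, was at 86.7, 93.2, 101 and 89.4 CPM with vehicle and at 167, 118, 347 and 195 CPM with ASO (adjusted p = 0.137), and ASO replicate 3 held the highest value. Calb1, the calcium buffer calbindin, was at 822, 782, 836 and 685 CPM with vehicle and at 918, 752, 1330 and 1096 CPM with ASO, so the groups overlapped (adjusted p = 0.514). Rora, the nuclear receptor that Purkinje cells need to mature, was at 331, 287, 361 and 298 CPM with vehicle and at 345, 301, 205 and 362 CPM with ASO (adjusted p = 0.849).

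The mGluR1 and calcium signalling genes of Purkinje dendrites had 0 of 36 called in edgeR and a median of 0.0862. Inpp5a, which ends inositol trisphosphate signals, was at 267 to 314 CPM with vehicle and at 379, 311, 421 and 447 CPM with ASO (adjusted p = 0.207). ASO replicate 2 lay inside the vehicle range and ASO replicate 4 was the highest treated library, below the lowest wild type library. Of 21 granule cell markers, 0 were called with all libraries. Grm4, a presynaptic glutamate receptor of granule cells, was at 143, 129, 148 and 119 CPM with vehicle, at 167, 183, 138 and 322 CPM with ASO and at 344 to 358 CPM in wild type (adjusted p = 0.465). Its ASO replicate 4 was near wild type, ASO replicates 1 and 2 were above every vehicle library, and ASO replicate 3 was inside the vehicle range. With ASO replicates 3 and 4 left out, Grm4 was called higher (log2 0.39, edgeR adjusted p = 0.0322). Cbln1, the synaptic organiser that granule cells release onto Purkinje cells, was at 543, 538, 537 and 430 CPM with vehicle and at 575, 600, 845 and 673 CPM with ASO, without overlap (adjusted p = 0.353).

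Genes of sterol synthesis were higher with ASO in all 4 treated libraries for many members. In edgeR, 6 of 25 passed the test once ASO replicate 3 was left out, beside 0.573% of all genes higher in that fit. With all libraries 0 of 25 were called in edgeR, 22 of 25 were positive and the median log2 fold change was 0.239. On the same libraries DESeq2 called 7 higher, beside 203 of 20018 genes tested, and limma-voom called 9, beside 181 of 20350. In 10 of the 25 all ASO libraries lay above all vehicle libraries, against 2.73% of all genes. Cyp51, the sterol 14-demethylase, was at 40.1, 42.7, 43.2 and 49.6 CPM with vehicle and at 59.4, 59.4, 73.5 and 58.8 CPM with ASO (1.43-fold, adjusted p = 0.0811). Idi1, an isomerase of the isoprenoid units from which sterols are built, was at 34.3, 37.1, 32.9 and 38.2 CPM with vehicle and at 47.0, 46.6, 72.3 and 51.0 CPM with ASO (1.52-fold, adjusted p = 0.132). ASO replicates 1, 2 and 4 held close values in both genes, and ASO replicate 3 held the highest. Without ASO replicate 3, Cyp51 rose 1.35-fold (adjusted p = 0.00843) and Idi1 rose 1.35-fold (adjusted p = 0.00441), and Sc5d, Insig1 and Fdft1, named after their values were seen, were also among the 6 called. Unlike the microglial genes, these genes were as high in ASO replicate 4 as in ASO replicates 1 and 2.

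Astrocyte and Bergmann glia markers were mixed. All 4 ASO libraries lay above all vehicle libraries for 4 of 21, Aldoc, Ntsr2, Gja1 and Hopx, against 2.73% of all genes. Gdf10 and Slc1a3, markers of Bergmann glia, overlapped with vehicle, with Slc1a3 at 1371, 1125, 1068 and 1311 CPM with ASO and at 1061 to 1222 CPM with vehicle. Aldoc, the aldolase of astrocytes and of Purkinje cell stripes, was at 1107, 1256, 1212 and 1117 CPM with vehicle, at 1649, 1409, 2210 and 1794 CPM with ASO and at 1977 to 2252 CPM in wild type (1.5-fold, adjusted p = 0.125). Without ASO replicate 3 it rose 1.38-fold (adjusted p = 0.0193). Of 21 tested markers of these cells, 4 rose in edgeR without ASO replicate 3, Aldoc, Ntsr2, Gja1 and Aqp4, against 0.573% of all genes in that fit. With all libraries edgeR called 0 of the 21. DESeq2 called 4 higher on these libraries, beside 203 of 20018 genes tested, and limma-voom called 5, beside 181 of 20350. Of these astrocyte markers, all but Aldoc were named after their values were seen. Of 25 oligodendrocyte and myelin genes, 0 were called in edgeR with all libraries and 23 were positive, with a median of 0.206. DESeq2 called 2 of them higher and limma-voom 3, beside the same counts over all genes. Tspan2, a tetraspanin of oligodendrocytes, rose 1.18-fold without ASO replicate 3 (adjusted p = 0.0175), and its ASO libraries ran from 143 to 154 CPM against 121 to 132 CPM with vehicle. Aspa, the aspartoacylase of oligodendrocytes, was at 33.2 to 42.9 CPM with ASO and 27.4 to 32.6 CPM with vehicle (adjusted p = 0.286).

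**Figure D5:**
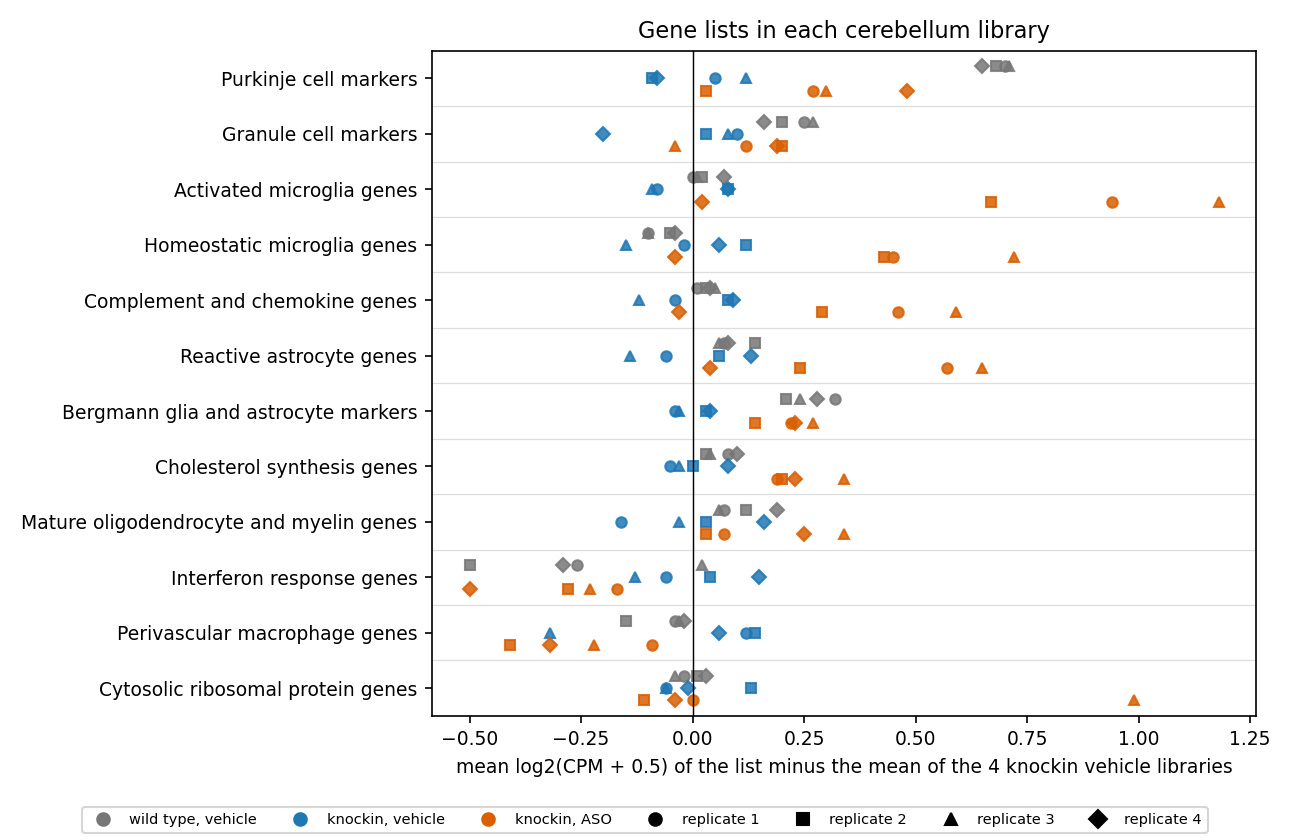
Mean log2(CPM + 0.5) over the genes of 12 lists in each cerebellum library, less the mean of the 4 knockin vehicle libraries (x axis, log2), with groups by colour and replicates by marker shape. For the activated microglia list ASO replicates 1 to 3 lie from 0.67 to 1.18 and ASO replicate 4 at 0.02, for the cholesterol list all 4 ASO libraries lie from 0.19 to 0.34, and for ribosomal protein genes ASO replicate 3 stands alone at 0.99.

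Interferon response genes were lower with ASO without any of them passing edgeR's test. Of 35 tested, 0 were called in edgeR, 34 had a negative log2 fold change and the median was -0.328. In 9 of the 35 all ASO libraries lay below all vehicle libraries, against 1.62% of all genes. DESeq2 called 2 members lower, beside 16 of 20018 genes tested, and limma-voom called 2, beside 20 of 20350. Cmpk2, a mitochondrial nucleotide kinase induced by interferon, was at 21.3, 21.5, 22.1 and 22.9 CPM with vehicle, at 17.5, 20, 16.7 and 15.5 CPM with ASO and at 15 to 17.4 CPM in wild type (adjusted p = 0.235). Ddx58, the RNA sensor RIG-I, was at 7.53, 7.39, 8.39 and 8.72 CPM with vehicle and at 6.75, 5.48, 5.43 and 6.44 CPM with ASO (adjusted p = 0.241). Over the whole list the mean log2 level of the ASO libraries lay from -0.17 to -0.50 against the vehicle mean, that of the vehicle libraries from -0.13 to 0.15, and that of wild type from -0.50 to 0.02, so the wild type libraries overlapped both. The interferon-stimulated response element, searched as GAAA, any 2 bases and GAAA, stood in 14 of the 25 promoter windows found for this list (56%) and in 3.038% of all genes in the table, on either strand. Rsad2, an antiviral gene named after its values were seen, is shown with this element in capitals (chr12:26456453-26456702, minus strand, GRCm38.p6). It was at 2.16, 2.86, 2.11 and 3.04 CPM with vehicle and at 1.96, 1.97, 1.39 and 1.44 CPM with ASO (adjusted p = 0.401).
Rsad2: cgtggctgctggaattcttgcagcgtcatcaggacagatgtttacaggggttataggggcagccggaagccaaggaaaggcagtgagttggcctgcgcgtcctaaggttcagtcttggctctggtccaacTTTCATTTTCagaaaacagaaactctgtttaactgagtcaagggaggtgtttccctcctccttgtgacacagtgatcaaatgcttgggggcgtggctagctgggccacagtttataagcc

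Activity-regulated genes leaned higher without passing edgeR's test. Of 18 tested immediate early genes, 0 were called in edgeR and 17 were positive, with a median log2 fold change of 0.352. With all libraries, DESeq2 called 2 of this list higher, beside 203 of 20018 genes tested, and limma-voom called 1, beside 181 of 20350. Nr4a1, an orphan nuclear receptor induced by activity, was at 9.99, 12.6, 9.09 and 10.9 CPM with vehicle and at 15.6, 12.2, 15.6 and 16.1 CPM with ASO (adjusted p = 0.241). Ier2, another rapidly induced gene, was at 8.11, 11.5, 7.65 and 8.33 CPM with vehicle and at 13.7, 9.61, 17.5 and 14.1 CPM with ASO (adjusted p = 0.267). In both genes ASO replicate 2 lay within the vehicle range. Vegfa, the angiogenic factor, was at 96.1 to 105 CPM with vehicle and at 84.0 to 106 CPM with ASO (adjusted p = 0.812), and Bace1, the beta-secretase, at 102 to 114 and 88.6 to 112 CPM (adjusted p = 0.694).

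Nuclear genes for ribosomal proteins and for oxidative phosphorylation were high in ASO replicate 3 alone, by 0.99 and 0.82 on the log2 scale over the vehicle mean. All 34 tested ribosomal protein genes were positive with all libraries, with a median log2 fold change of 0.292, but 0 were called, and without ASO replicate 3 the median was -0.0571 and 2 of the 34 were positive. The 30 oxidative phosphorylation genes went from a median of 0.255 to -0.0746. Potassium channel, glutamate and GABA receptor, and sodium and calcium channel genes had mean log2 levels 0.45 to 0.62 below vehicle in ASO replicate 3. In edgeR, 0 of their members were called with all libraries. The part that transcript length or RNA quality has in these values was not tested. Brainstem genes were not evenly low either: Dbh, the enzyme that makes noradrenaline, was at 18.2 CPM in ASO replicate 4 and 5.67 CPM in ASO replicate 3 and at most 1.35 CPM in the other 10 libraries, and the part of differences in dissection was not tested.

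In edgeR, the remaining lists had 0 members called with all libraries, in either direction. DESeq2 called 1 potassium channel, 1 glutamate or GABA receptor and 2 brainstem genes higher on these libraries, beside 203 of 20018 genes tested. Of potassium channel genes, limma-voom called 3 higher and 1 lower, beside 181 and 20 of 20350, and it called 1 receptor gene higher. Cerebellar interneuron and unipolar brush cell markers had a median log2 fold change of -0.107 over 17 genes, and synaptic organiser genes one of -0.00633 over 21. The 22 antigen presentation genes had a median of 0.039, and the 14 oligodendrocyte precursor genes one of 0.0189. Endothelial and mural cell genes (22) and meningeal and fibroblast genes (18) had medians of 0.00942 and -0.066. The 26 heat shock and unfolded protein genes had a median of 0.159, which was -0.0434 without ASO replicate 3, and the 18 p53 and DNA damage genes had one of 0.149. The 13 mitochondrially encoded genes had a median of -0.022. Potassium channel genes had a median of 0.00757 over 29 genes, sodium and calcium channel genes -0.118 over 22, and glutamate and GABA receptor genes -0.065 over 31. Genes of neighbouring tissue and blood varied between single libraries: choroid plexus genes (18) had a median of -0.0389, motile cilia and ependymal genes (22) 0.145, brainstem and deep nuclei genes (22) 0.518 and blood genes (8) 0.268. Against the vehicle mean, the brainstem list stood at 0.78 in ASO replicate 4 and the blood list at 1.07 in ASO replicate 3.

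The ASO effect in cerebellum at 18 weeks was set against the ASO effect in medulla at 28 weeks, by an interaction term in a joint model of the 12 cerebellum and 23 medulla libraries, with the labelled batch of the medulla libraries as a covariate. Tissue and age differ together in this test and cannot be told apart. Of 22039 genes tested, 5 had a higher ASO effect in cerebellum (0.0227%) and 1 a lower one (0.00454%). Muc3a had a log2 ASO effect of 1.68 in cerebellum and -0.06 in medulla, a difference of 1.74 ± 0.32 (SE, edgeR adjusted p = 0.0239). Chst8, a sulfotransferase that modifies hormone sugar chains, had 0.60 and -0.02 (difference 0.62 ± 0.11, adjusted p = 0.0208). The importin gene Ipo5 and the membrane scaffold gene Stom differed by 0.30 and 0.48 (adjusted p = 0.0314 each). The other two genes called are not among those named by rule. For the microglial genes no difference was called: Clec7a had a log2 ASO effect of 2.18 in cerebellum and 1.26 in medulla, and Atxn1 had -0.78 and -0.43. With medulla at 18 weeks in place of 28 weeks, 2 genes had a higher effect in cerebellum and 0 a lower one. In that medulla set the libraries labelled ASO replicate 2 and wild type replicate 3 go against their labels in Atxn1 (38.4 and 15.1 CPM, vehicle 42.7 to 48.4 CPM), and whether they were exchanged was not tested. The count of higher genes was 2, 1, 1 and 3 without cerebellum vehicle replicates 1 to 4, 8 without ASO replicate 2 and 1 without ASO replicate 4.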

How the data were processed

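The deposited values were whole-number counts per gene, made by the authors before deposit. Per the submitters' processing notes, CASAVA 1.8, HISAT2 2.0.2, featureCounts of the Subread package, R 3.3.3, DESeq2 1.14.1 and the GRCm38 build were used. No source used here gives the strand setting of the counting, or whether pairs were counted once. Since most low counts were even, a minimum count of 10 may stand for fewer fragments. Of 49670 gene IDs, 345 had no symbol and held 0.0816% of counts. All count columns matched a sample, with 0 left out.

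The 12 cerebellum libraries (4 wild type, 4 vehicle knockin, 4 ASO knockin) were fitted together with edgeR 4.0.16 in R 4.3.3, with TMM scaling, filterByExpr at a minimum count of 10 and the robust quasi-likelihood test. P-values were Benjamini-Hochberg adjusted over all genes tested, with a threshold of 0.05. The method was tested on simulated data. Alternatives were DESeq2 1.42.0, limma-voom (limma 3.58.1), RLE scaling, no filter, a filter of 1 CPM in 4 libraries, the knockin groups alone, a replicate block and leaving out each library. Leaving out ASO replicates 3 and 4 together, and the alternatives to the fit without ASO replicate 4, were chosen after seeing the data.

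The comparison and the 35 gene lists were chosen with earlier results of these data known. Genes were named by a rule: Atxn1, Atxn1l, Cic, Rora, Calb1, Gfap, Cck, Vegfa and Bace1, then the 10 largest called changes in each direction with a mean log2 CPM of at least 1, groups that do not overlap and a full symbol, filled with the smallest p-values, then the 5 largest without ASO replicate 4, up to 3 called genes per list (or the 2 of smallest p) and the genes of the interaction. Genes outside it are marked as named after their values were seen, or are examples and cell type markers. Some genes that the rule names are not reported here.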

Additional observations from a re-analysis of the deposited data

Results flagged for a closer look

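Among 180 groups of 4 libraries examined over 60 genes, 11 held a library far from the other 3 by Dixon's ratio. Chance gives about 5% of groups, so this count is near that share. In wild type, Calb1 was low in replicate 4 (1200 CPM, others 1270 to 1280), Nr4a1 was low in replicate 4 (10.6 CPM, others 13.1 to 13.2), Trem2 was high in replicate 4 (7.86 CPM, others 7.27 to 7.35) and Fcrls was high in replicate 2 (7.77 CPM, others 6.96 to 7.08). With vehicle, Fam107b was high in replicate 3 (85.8 CPM, others 75.7 to 77.4), Trabd2b was low in replicate 2 (12.3 CPM, others 14.9 to 15) and Cbln1 was low in replicate 4 (430 CPM, others 537 to 543). With ASO, Cic was low in replicate 3 (98.8 CPM, others 188 to 194), Cyp51 was high in replicate 3 (73.5 CPM, others 58.8 to 59.4), Stac was high in replicate 4 (16.5 CPM, others 12.2 to 12.9) and Nr4a1 was low in replicate 2 (12.2 CPM, others 15.6 to 16.1).

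The ASO effect differed between cerebellum at 18 weeks and medulla at 28 weeks by an interaction term for Chst8 (0.621 on the log2 scale), Muc3a (1.74), Stom (0.479) and Ipo5 (0.302).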

How the results depend on the processing

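The 10 genes called with all libraries were higher in all of the alternatives run, with 2 to 10 of them called, except that 0 were called without ASO replicate 4 in the fit of the knockin groups alone. The count of genes called higher (10) and lower (0) was 2 higher in the knockin groups alone, 203 and 16 with DESeq2, 181 and 20 with limma-voom, 2 higher without ASO replicate 4 in the knockin groups alone, and 109 and 14 with ASO replicates 3 and 4 left out. Leaving out 1 library gave 4 to 118 higher and 0 to 6 lower. Without ASO replicate 4 (44 and 0), it was 2 higher in the knockin groups alone, 199 and 23 with DESeq2, 136 and 12 with limma-voom and 2 lower with no filter, and leaving out 1 more library gave 25 to 113 higher and 0 to 14 lower. The Atxn1 difference of the means was -30.7 to -20.69 CPM when 1 library was left out (exact permutation p from 0.029 to 0.057), and -25.52 CPM with both ASO replicates 3 and 4 left out (exact permutation p = 0.067, the smallest possible). The interaction counts (5 and 1) were 2 and 0 with medulla at 18 weeks, 3 and 0 with both ASO libraries out, and 1 to 8 and 0 to 1 when 1 library was left out.

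The replicate numbers were not treated as pairs: same-numbered ASO and vehicle libraries had correlations of deviations of -0.257, 0.0356, -0.158 and 0.235. With a replicate block, 4 genes were called higher, and 12 without ASO replicate 4.

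Genes near 0 changed sign, none past the threshold. With limma-voom the log2 fold change was 0.1121 for Cic, 0.06562 for Rora and 0.0003676 for Vegfa. Over the fits that leave out 1 library it ran from -0.1348 to 0.1272 for Cic, -0.1789 to 0.07245 for Rora and -0.08645 to 0.01892 for Vegfa, positive without ASO replicate 3. Without ASO replicate 4 and 1 more library it ran from -0.5268 to 0.01276 for Atxn1l, -0.2901 to 0.1317 for Cic, -0.3484 to 0.01568 for Rora, -0.1104 to 0.05896 for Vegfa and -0.16 to 0.01548 for Bace1, the positive ends being those without ASO replicates 3 and 4. With limma-voom and without ASO replicate 4 it was 0.1089 for Cic, 0.003536 for Rora and 0.03793 for Vegfa. The cause was not tested. Of 1470 list counts over all alternatives, 70 moved by more than 1.5 times.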

Other observations

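The column headers carry numbers that some cerebellum libraries share with medulla and pons libraries of the same age, although the labels do not say what the numbers stand for. The medulla libraries that share a number with cerebellum ASO replicates 1 and 2 held 13.3 and 20.8 CPM of Atxn1 and 22.1 and 5.58 CPM of Clec7a, where the vehicle medulla libraries held 42.7 to 48.4 CPM of Atxn1 and 0.830 to 1.18 CPM of Clec7a. The pons libraries with these numbers held 16.6 and 24.2 CPM of Atxn1 and 14.8 and 6.35 CPM of Clec7a, where vehicle pons held 44.7 to 49.3 and 1.01 to 1.71 CPM. Libraries labelled wild type replicate 3 at 18 weeks had 15.1 CPM of Atxn1 in medulla, 16.5 CPM in pons, with Clec7a at 11.5 and 13.2 CPM. Libraries labelled ASO replicate 2 had 38.4 CPM of Atxn1 in medulla, 50.9 CPM in pons, with Clec7a at 1.65 and 1.34 CPM. Both pairs of values go against their labels, and whether the labels were exchanged was not tested. These libraries enter only the alternative that uses medulla at 18 weeks.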
